A study of Mus musculus with 12 samples.

Results

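MiRNA levels in immortalized mouse macrophages after 60 min of LPS were set against those after 30 min. The comparison holds 6 of the 12 samples of the series, chosen by the time in their titles, with 3 labelled 60 min and 3 labelled 30 min. Both groups were IMM cells, a macrophage line kept in permanent culture, that had been passaged after thawing and were given 100 ng/mL of lipopolysaccharide (LPS) from 1 supplier, so the groups differ by time alone in the labels. The series text describes 3 biological replicates per time point. No 0 min sample enters the comparison, so each value sets a later against an earlier stimulated time and not against resting cells. The labels give no strain or sex and no way in which the line was immortalized.

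LPS, from the outer membrane of Gram-negative bacteria, is sensed by Toll-like receptor 4 and activates NF-κB and other transcription factors in macrophages within minutes. Mature miRNAs are short RNAs, cut from hairpin precursors, that guide Argonaute proteins to partly complementary sites in mRNAs, mainly through the seed near their 5′ end. In macrophages miR-155, miR-146a and miR-132 are known as miRNAs whose transcription rises after Toll-like receptor signalling, and a mature miRNA can accumulate later than the primary transcript it is cut from.

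The mature sequence of miR-376a, which alone passed the test described below, is shown first with that of miR-376b, a close relative on the same panel that was not detected. Capitals mark the seed, bases 2 to 8, and sequences and coordinates are RefSeq's for GRCm38.p6. The deposited table names most probes without an arm, so the arm given in each name follows the usual match of the older names and is not stated by the table. MiR-376a lies at chr12:109723824-109723844 on the plus strand, in the hairpin chr12:109723781-109723848, within the imprinted Dlk1-Dio3 domain. The 2 sequences are identical at 18 of 21 positions and at 6 of the 7 seed positions.
miR-376a-3p: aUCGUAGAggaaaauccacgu
miR-376b-3p: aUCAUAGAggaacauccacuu

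The next 7 sequences belong to the miRNAs that had the highest changes after miR-376a among those above the floor in all 6 samples, and they are shown because no 2 of them share a seed. MiR-25, which is not among them, is added because it has the seed of miR-32. By annotation the hairpin of miR-32 lies within the span of Tmem245, that of miR-691 within Robo2, that of miR-1902 within Hipk3 and that of miR-3099 within Usp29. MiR-365 has hairpins on chromosomes 11 and 16 with the same mature sequence, which the probe cannot tell apart.
miR-691: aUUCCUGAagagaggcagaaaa
miR-760-3p: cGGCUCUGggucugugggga
miR-3471: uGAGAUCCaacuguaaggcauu
miR-32-5p: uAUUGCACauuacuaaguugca
miR-3099-3p: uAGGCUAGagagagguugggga
miR-1902: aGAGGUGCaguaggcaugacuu
miR-365-3p: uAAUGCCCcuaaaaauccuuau
miR-25-3p: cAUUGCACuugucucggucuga

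The last set is for 5 of the 8 miRNAs with the lowest changes among the same miRNAs, with miR-301a added because it has the seed of miR-130b. The hairpins lie within the spans of Vezt (miR-331-3p), Vwa5b2 (miR-1224), Pde2a (miR-139-5p) and Zfp185 (miR-2137). MiR-2141, miR-467c and the probe shared by miR-1937a and miR-1937b are named without a sequence.
miR-331-3p: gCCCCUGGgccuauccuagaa
miR-1224-5p: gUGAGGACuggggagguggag
miR-139-5p: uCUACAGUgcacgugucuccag
miR-2137: gCCGGCGGgagccccagggag
miR-130b-3p: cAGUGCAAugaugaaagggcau
miR-301a-3p: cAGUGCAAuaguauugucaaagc

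The assay was a NanoString nCounter panel for mouse miRNAs, in which a tag is ligated to each miRNA and barcoded probes are then counted without amplification. The deposited values are called signal here. They behave as counts times a single factor for each sample, which gives 4 housekeeping mRNAs the same geometric mean in all samples, and no miRNA lies below a floor of 20. Depth was 234392 to 268804 counts in the 60 min samples and 218544 to 233833 counts in the 30 min samples, of which mouse miRNAs held 183470 to 218282 and 165897 to 187657. Of the 566 mouse miRNA probes, 299 lay at the floor in all 6 samples, where no difference could be detected at this depth, and 161 lay above it in all 6. A filter on the mean over the 6 samples, set by the negative controls at a signal of 35.8, kept 145 miRNAs. The member just inside was miR-500, at 36.2, and the one just outside was miR-770-3p, at 35.5.

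Overall miRNA levels did not separate the time points. Summed mouse miRNA signal was 234714, 257963 and 169681 in the 60 min samples and 229822, 172395 and 218830 in the 30 min samples. The 2 groups overlapped, with 1 low sample in each, 60 min replicate 3 and 30 min replicate 2. On the log2 scale the sums averaged 17.73 ± 0.32 and 17.65 ± 0.22 (SD, n = 3 each), a difference of 0.08 (p = 0.6 by a two-sided exact permutation test). Adjusted over the 8 measures of overall level this p was 0.96, and 0.1 is the smallest exact p that 3 against 3 samples can give. The same 2 samples had the highest housekeeping counts of their groups, 2351 per 1000 positive control counts in 60 min replicate 3 against 1585 and 1928 in the other 60 min samples, and 2149 in 30 min replicate 2 against 1650 and 1932 in the other 30 min samples. Their part in the low sums was not tested. The sign of the difference turned without 60 min replicate 2 and without 30 min replicate 2 (-0.04 in each case).

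**Figure D1:**
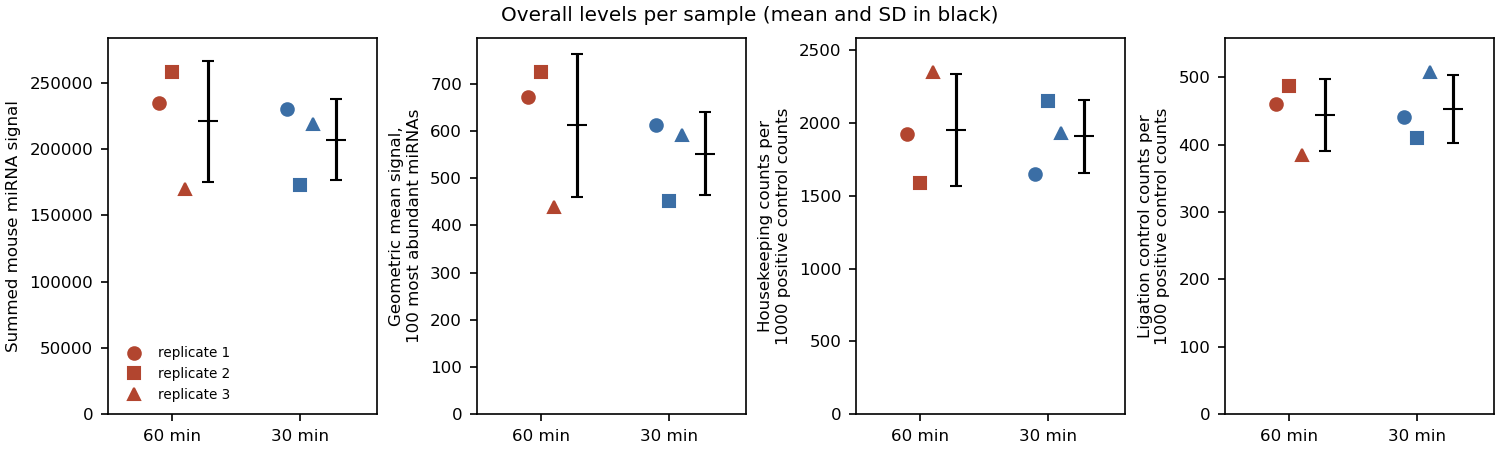
Overall levels in each sample (points, shaped by replicate number, red for 60 min and blue for 30 min) with the mean and SD of the 3 samples in black, for summed miRNA signal, the geometric mean signal of the 100 most abundant miRNAs, and housekeeping and ligation control counts per 1000 positive control counts. In all 4 panels the 60 min and 30 min samples overlap, and 60 min replicate 3 and 30 min replicate 2 are the lowest of their groups in the first 2 panels.

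Because the samples differ by such overall factors, each result is given on 2 scales, as deposited and scaled (the top-100 scale). For the latter each sample is divided by its geometric mean of the same 100 mouse miRNAs, those most abundant on average over the 6 samples. The 100 miRNAs held 94.6% of the miRNA signal. The factors removed were 1.17, 1.27 and 0.768 for the 60 min samples and 1.07, 0.790 and 1.03 for the 30 min samples. A change on the top-100 scale is relative to these abundant miRNAs, and on either scale fewer cells and less RNA per cell cannot be told apart. Changes are differences of mean log2(signal + 1), 60 min minus 30 min, with the standard error of the limma fit.

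Most changes between 60 and 30 min were small. The median change of the 145 was 0.09 on the deposited scale, with 101 of them (69.7%) positive, and -0.04 on the top-100 scale, with 68 (46.9%) positive. A change of less than 0.5 in size was found for 134 miRNAs on the deposited scale and for 137 on the top-100 scale. The 95% confidence interval lay within 1 log2 unit of 0 for 121 miRNAs (83.4%) on the deposited scale and for 135 (93.1%) on the top-100 scale. For these a 2-fold difference lay outside the interval of the fit, while for the rest it did not. On the deposited scale the fit gave every miRNA the same standard error, 0.33. Those intervals rest on a spread pooled over the 145 miRNAs, so the count of 121 does not measure the spread of each miRNA.

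In limma with Benjamini-Hochberg adjustment over the 145 miRNAs, 1 miRNA passed at an adjusted p under 0.05 on the deposited scale, miR-376a (0.69%, higher at 60 min), and 0 passed as lower. A further 7 had an unadjusted p under 0.05 there, which makes 8 higher (5.52%) and 0 lower. After top-100 scaling 0 of 145 passed, with a lowest adjusted p of 0.131, and 9 (6.21%) were higher and 5 (3.45%) lower at an unadjusted p under 0.05. Nothing is read from the counts at an unadjusted p. Leaving out 60 min replicate 3 gave 15 calls on the deposited scale, and leaving out 60 min replicate 2, 30 min replicate 1 or 30 min replicate 2 gave 0. The count on the top-100 scale was 4 without 30 min replicate 3.

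**Figure D2:**
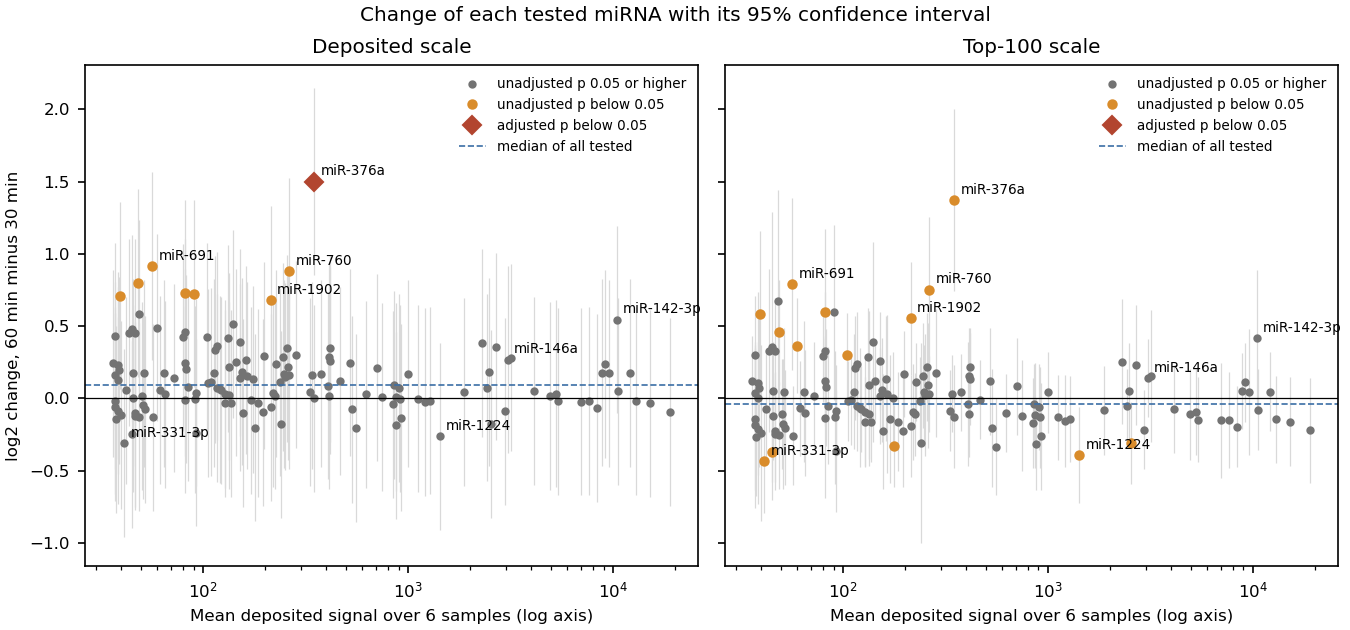
Change of each of the 145 tested miRNAs (log2, 60 min minus 30 min) with its 95% confidence interval, against mean deposited signal over the 6 samples on a log axis, on the deposited scale (left) and the top-100 scale (right). MiR-376a stands highest on both scales, at 1.50 and 1.37, and the dashed lines mark the medians of 0.09 and -0.04.

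MiR-376a belongs to a family of miRNAs cut from a large imprinted cluster on chromosome 12 that is transcribed from the maternal allele, and precursors of this family are known substrates of A-to-I RNA editing. Its deposited signal was 429.2, 796.7 and 323.5 in the 60 min samples and 153.1, 115.3 and 274.3 in the 30 min samples, from 411, 606 and 366 counts against 129, 116 and 231 counts. All 3 samples at 60 min lay above all 3 at 30 min. It rose by 1.50 ± 0.33 (95% confidence interval 0.85 to 2.15, adjusted p = 0.000978 in limma).

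MiR-376a on the top-100 scale had 365.5, 628.6 and 421.3 in the 60 min samples against 142.9, 146.0 and 265.2 in the 30 min samples, which again did not overlap. The change of 1.37 ± 0.28 (0.74 to 2.00) was similar in size and did not pass (adjusted p = 0.131 in limma). On this scale it did pass with scaling to the ligation controls in place of the top 100 (1.49, adjusted p = 1.57e-08), with no filter (adjusted p = 4.89e-06), with a variance trend (adjusted p = 0.0254) and without 30 min replicate 3 (1.66, adjusted p = 0.0149). Within the 60 min samples the highest was 1.72 times the lowest on this scale, and within the 30 min samples 1.86 times. The call on the deposited scale ended without 60 min replicate 2 (change 1.13, adjusted p = 0.212), without 30 min replicate 1 (1.43, adjusted p = 0.0556), without 30 min replicate 2 (1.22, adjusted p = 0.340), with no filter (1.50, adjusted p = 1), and without both low samples (1.51, adjusted p = 0.0931), a setting chosen after seeing the data. On the deposited scale the fit gave every miRNA the same standard error of 0.33, so the p of miR-376a rests on a spread pooled over the 145 miRNAs and not on its own. The fit with no filter on the top-100 scale likewise gave every probe the same standard error, 0.24. That spread was pooled over 566 probes, of which 299 lay at the floor in all 6 samples. With scaling to the ligation controls (standard error 0.21) the fit drew mostly on the pooled spread. Both small p values from limma therefore say little about the spread of miR-376a itself. On the deposited scale the fit with no filter held the same 566 probes and drew almost nothing from a pooled spread. Its standard error for miR-376a was 0.53, against 0.33 in the main fit, so the loss of the call there also goes with a different spread.

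Other miRNAs listed for the Dlk1-Dio3 domain gave little to set beside it. Of the 31 probes on that list, which may not hold every miRNA of the domain, 19 lay at the floor in all 6 samples. Among these 19 were miR-376b and miR-376c. Only miR-376a and miR-136 of the list were tested. MiR-136 had 267.3, 335.2 and 200.7 at 60 min and 253.9, 144.1 and 270.8 at 30 min on the deposited scale. These overlapped, and its change was 0.29 ± 0.33 on the deposited scale and 0.16 ± 0.16 on the top-100 scale (adjusted p = 0.997 and 0.757).

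After miR-376a, the 7 highest changes among miRNAs above the floor in all 6 samples were those of miR-691, miR-760, miR-3471, miR-32, miR-3099, miR-1902 and miR-365, in the same set on both scales. None of the 7 passed on either scale (adjusted p from 0.382 to 0.997 deposited and from 0.457 to 0.516 top-100). The calls depended on the samples and the scaling. Without 60 min replicate 3 all 7 passed on the deposited scale (adjusted p from 0.00516 to 0.0179 in limma). That omission also moved the median change of all 145 tested miRNAs from 0.09 to 0.33 there, and on the top-100 scale it gave 0 calls. With scaling to the ligation controls in place of the top 100, the 7 without miR-365 passed (adjusted p from 0.00179 to 0.0201), in a fit that drew mostly on the pooled spread. Their values are given on the top-100 scale. MiR-760 had 233.9, 388.0 and 347.7 at 60 min and 159.5, 175.0 and 235.4 at 30 min, a change of 0.75 ± 0.22 (0.25 to 1.25). The groups overlapped by 1 pair of samples, 60 min replicate 1 and 30 min replicate 3, and on the deposited scale they did not overlap.

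MiR-1902 had 245.5, 261.4 and 226.8 at 60 min and 144.0, 148.5 and 213.5 at 30 min, a change of 0.55 ± 0.17 (0.16 to 0.94). Every 60 min sample was above every 30 min sample. MiR-691 had 56.0, 75.7 and 76.0 at 60 min against 27.7, 36.5 and 59.7 at 30 min (0.79 ± 0.26, 0.19 to 1.38). It came from 63 to 73 counts against 25 to 52, while the highest negative control of a sample reached 27 to 36 counts, so its lower values lie near background.

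MiR-32 shares the seed AUUGCAC with miR-25 and miR-92a, which come from other transcripts. It had 100.5, 88.2 and 92.1 at 60 min and 43.2, 56.6 and 94.1 at 30 min (0.60 ± 0.25, 0.03 to 1.17), where 30 min replicate 3 lay among the 60 min samples. MiR-25, made from an intron of Mcm7 with the related miR-93 and miR-106b and far more abundant, had 4728 ± 663 at 60 min and 5076 ± 170 at 30 min (SD, n = 3 each), a change of -0.11 ± 0.14. MiR-92a was not tested and lay above the floor in 4 of the 6 samples.

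MiR-3099 had 68.5, 147.3 and 104.8 at 60 min against 55.4, 66.7 and 81.5 at 30 min (0.60 ± 0.27, -0.01 to 1.20). The spread at 60 min was wide, and 60 min replicate 1 lay below 30 min replicate 3. MiR-3471 rested on 1 sample, with 32.9, 94.4 and 46.1 at 60 min against 33.2, 26.4 and 39.0 at 30 min (0.67 ± 0.34, -0.10 to 1.44). Its 30, 21 and 34 counts at 30 min lie near the highest negative controls, and its mean signal of 32.3 at 30 min was below the filter, so it was tested only through its 60 min values, as were 7 of the 145 in all. MiR-365, with 60.5, 56.0 and 48.4 at 60 min and 37.6, 47.8 and 34.4 at 30 min (0.46 ± 0.16, 0.10 to 0.82), did not overlap between the groups, but its 34, 38 and 30 counts at 30 min also lie near the highest negative controls. MiR-701, which lay at the floor in 1 sample and is named outside the naming rule, had a change of 0.71 ± 0.33 on the deposited scale (adjusted p = 0.657). Without 60 min replicate 3 it passed there (0.95, adjusted p = 0.00981 in limma). Its mean signal of 29.4 at 30 min was below the filter, so miR-701 too was tested only through its 60 min values.

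Single samples had a like place in several of these miRNAs. In 7 of the 8 highest, miR-376a included, 30 min replicate 3 was the highest of the 30 min samples on the top-100 scale, as it was in 53 of all 145. In 5 of the 8, 60 min replicate 2 was the highest of the 60 min samples, as it was in 45 of 145. Without 30 min replicate 3 the changes of miR-376a, miR-691, miR-32 and miR-1902 passed on the top-100 scale, at 1.66, 1.09, 0.90 and 0.74.

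Of the 6 miRNAs that rose over the whole time course in earlier results of these data, miR-376a, miR-760, miR-3099, miR-691, miR-1902 and miR-490, all had a positive change on both scales, with a median of 0.80 on the deposited scale and 0.67 on the top-100 scale against 0.09 and -0.04 over all tested. An unadjusted p under 0.05 was reached by 5 of the 6 on each scale (5.52% and 6.21% of all tested in that direction). The list was chosen on samples that include these 6, so its direction here is no independent evidence. MiR-490, the weakest of the 6, had 122.7, 111.0 and 105.9 at 60 min and 90.8, 99.4 and 85.0 at 30 min on the top-100 scale. The groups did not overlap there, and its change was 0.30 ± 0.13 (adjusted p = 0.457).

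**Figure D3:**
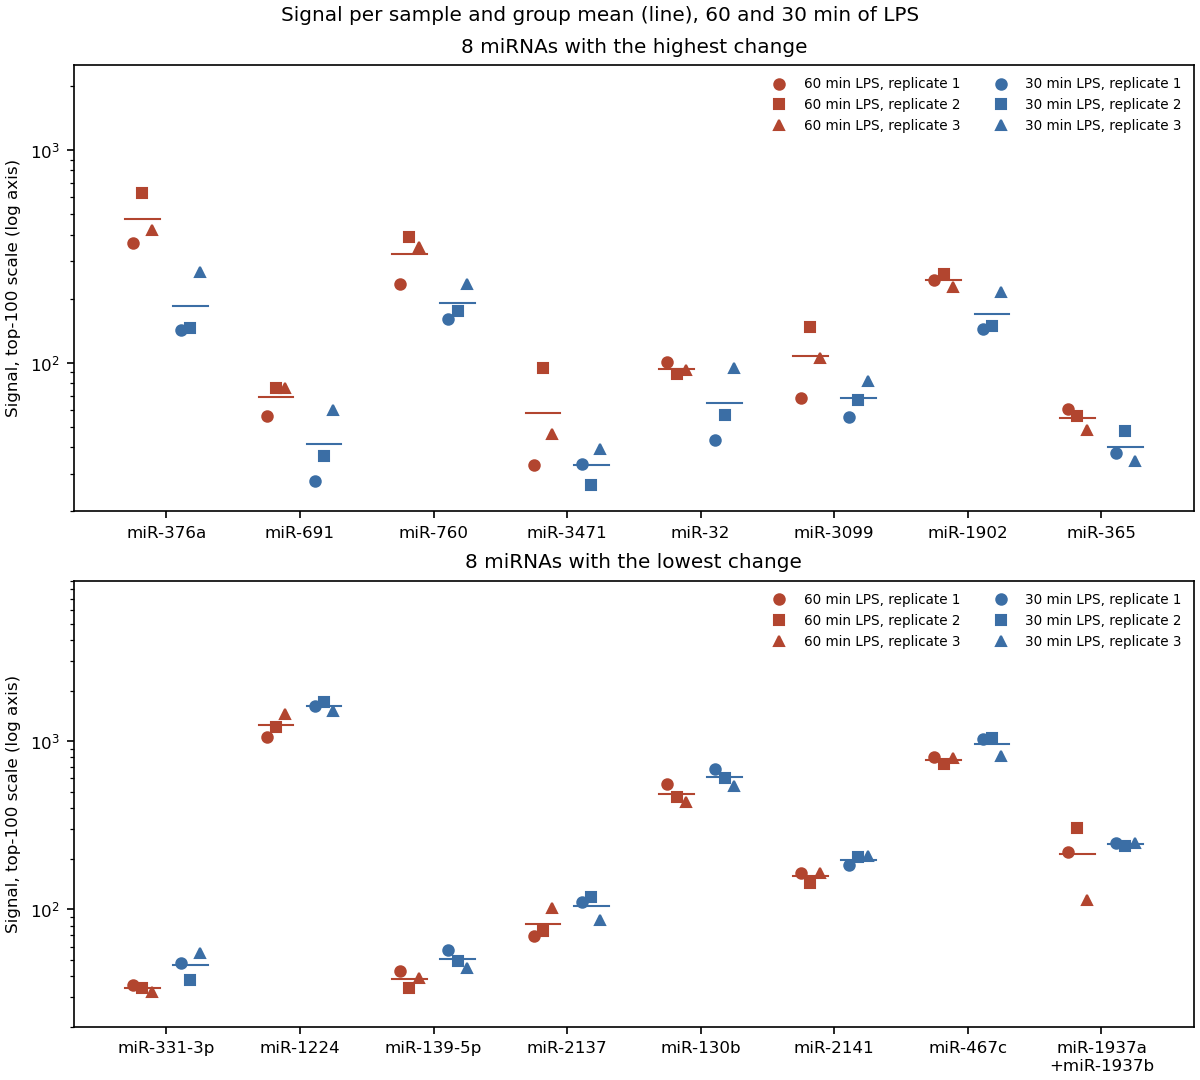
Signal on the top-100 scale (log axis) in each 60 min (red) and 30 min (blue) sample, with point shapes for the replicate number and lines for group means, for the 8 miRNAs with the highest (top) and the 8 with the lowest (bottom) change among those above the floor in all 6 samples. MiR-376a has 365.5 to 628.6 at 60 min and 142.9 to 265.2 at 30 min, and the lowest changes are smaller in size, at most 0.43.

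The lowest changes were smaller than the highest, and none passed. The same 8 miRNAs had the lowest change on both scales, at -0.31 to -0.18 on the deposited scale and -0.43 to -0.31 on the top-100 scale. Their adjusted p after top-100 scaling ran from 0.457 to 0.757. MiR-331-3p had 35.6, 34.2 and 32.2 at 60 min and 47.6, 37.8 and 55.1 at 30 min (-0.43 ± 0.16, -0.79 to -0.08). The groups did not overlap, but its counts of 28 to 48 lie near the highest negative controls.

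MiR-1224, known as a mirtron whose hairpin is formed by a whole spliced intron, was the most abundant of the 8. It had 1059, 1210 and 1455 at 60 min and 1630, 1699 and 1519 at 30 min on the top-100 scale (-0.39 ± 0.15, -0.73 to -0.06), with every 60 min sample below every 30 min sample. On the deposited scale it had 1244, 1533 and 1117 against 1747, 1342 and 1571, where the groups overlapped. MiR-139-5p had 42.7, 34.2 and 39.1 at 60 min against 57.6, 49.1 and 44.8 at 30 min on the top-100 scale (-0.37 ± 0.15, -0.70 to -0.04), and these did not overlap. Its 33 and 34 counts in 60 min replicates 2 and 3 lie near the highest negative controls of those samples, 30 and 33 counts.

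MiR-130b had 555.8, 463.7 and 435.2 at 60 min and 684.4, 608.0 and 539.6 at 30 min on the top-100 scale (-0.33 ± 0.15, -0.67 to 0.01). Its groups overlapped by 1 pair of samples. MiR-301a, which has the same seed AGUGCAA and was chosen for that, had 346.8, 322.6 and 349.97 at 60 min and 315.6, 342.4 and 338.7 at 30 min, a change of 0.03 ± 0.12. MiR-2141 (163.6, 144.2 and 163.5 against 182.7, 203.9 and 206.7) was lower in every 60 min sample than in every 30 min sample on this scale (-0.33 ± 0.12, -0.61 to -0.05).

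MiR-467c and the probe shared by miR-466a-3p and miR-466b-3-3p come from repeated hairpins in an intron of Sfmbt2, and probes of such near-identical miRNAs may not tell them apart. MiR-467c had 801.3, 727.2 and 789.7 at 60 min and 1033, 1050 and 815.1 at 30 min on the top-100 scale (-0.31 ± 0.14). The shared probe had 2364, 2045 and 2361 at 60 min and 2693, 2963 and 2705 at 30 min (-0.31 ± 0.12). In both the groups did not overlap. Over the 10 tested probes on the list for this intron the median change was 0.02 deposited, with 7 positive, and -0.11 top-100, with 3 positive. Tested probes of like name, such as miR-669o and miR-669e, are not on that list.

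MiR-2137 had 69.4, 74.7 and 101.3 at 60 min and 110.7, 118.3 and 86.1 at 30 min (-0.36 ± 0.18), with overlap. The probe shared by miR-1937a and miR-1937b had 219.7, 306.0 and 114.0 at 60 min and 247.0, 239.2 and 246.8 at 30 min (-0.31 ± 0.30). Its low mean rests on 60 min replicate 3, without which the change was 0.09.

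Non-overlap between the 3 samples of each group depended on the scale. On the deposited scale 3 of the 145 tested miRNAs (2.07%) had all 60 min samples above all 30 min samples, miR-376a, miR-760 and miR-100. None had them all below. On the top-100 scale 8 (5.52%) lay above, miR-376a, miR-1902, miR-365, miR-490, miR-764-3p, miR-328, miR-7a and miR-146a. A further 10 (6.9%) lay below on that scale, miR-331-3p, miR-1224, miR-139-5p, miR-2141, miR-467c, the shared miR-466a-3p probe, let-7b, miR-148b, miR-15b and miR-26b. Among the 145 tested, miR-376a was the one miRNA whose groups did not overlap on both scales. MiR-1970, which the filter left out, also did not overlap on the deposited scale. It had 36.55, 51.27 and 42.43 at 60 min and 20, 20.87 and 20 at 30 min, where 20 is the floor. MiR-764-3p, from an intron of Htr2c, had 61.4, 68.5 and 65.6 at 60 min and 50.9, 42.8 and 58.5 at 30 min on the top-100 scale (0.36 ± 0.14, adjusted p = 0.457). MiR-764-3p, miR-100, miR-328, miR-7a and miR-1970 were named outside the naming rule after their values were seen.

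Of the miRNAs known to be induced by LPS, few were in the range of the assay and none passed. Of 9 such probes, 3 were tested, while 4 were never above the floor (miR-9, miR-147, miR-155 and miR-212). MiR-146b and miR-187 were above the floor in 3 samples and 1 sample, with signal of at most 31.6. The median change of the 3 tested was 0.27 on the deposited scale and 0.14 on the top-100 scale.

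MiR-146a, a feedback inhibitor that targets the Toll-like receptor adaptors Irak1 and Traf6, had 3257, 3081 and 3094 at 60 min and 3045, 2695 and 2823 at 30 min on the top-100 scale. Every 60 min sample was above every 30 min sample, by a small margin. The change was 0.14 ± 0.12 (-0.13 to 0.41, adjusted p = 0.734), and on the deposited scale 0.27 ± 0.33 with overlap. The interval leaves out a rise of 1.5-fold or more on the top-100 scale (0.58 log2 units).

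MiR-21, known to repress Pdcd4 in LPS-treated macrophages, had 455.4, 461.6 and 352.3 at 60 min and 364.3, 360.0 and 406.4 at 30 min on the top-100 scale (0.16 ± 0.15, -0.17 to 0.49, adjusted p = 0.740). The 60 min samples lay on both sides of the 30 min samples. MiR-132 had 54.2, 57.1 and 69.1 at 60 min against 69.8, 62.9 and 56.3 at 30 min (-0.07 ± 0.15, -0.40 to 0.26). On the deposited scale its change was 0.06 ± 0.33, so its sign differed between the scales.

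Markers of blood-forming cells were present throughout. MiR-142-3p, which is restricted to blood-forming lineages, had 11824, 11298 and 11296 at 60 min and 6347, 8503 and 11771 at 30 min on the top-100 scale. The 60 min samples were close together and the 30 min samples spread widely, with 30 min replicate 3 above 2 of the 60 min samples. The change was 0.42 ± 0.21 (-0.06 to 0.89, adjusted p = 0.516), and 0.54 ± 0.33 on the deposited scale, where it passed without 60 min replicate 3 (0.78, adjusted p = 0.0485 in limma).

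MiR-142-5p, from the other arm of the same hairpin, had 122.8 ± 17.8 at 60 min and 106.0 ± 14.4 at 30 min (SD, n = 3 each, top-100 scale), a change of 0.21 ± 0.16. MiR-223, a myeloid miRNA that restrains granulocyte activity, had 883.5 ± 167 at 60 min and 956.9 ± 44.9 at 30 min, a change of -0.13 ± 0.15. Both are named outside the naming rule. Of the 8 tested members of the myeloid list 0 passed and 6 had a positive change on each scale, with a median of 0.25 on the deposited scale and 0.13 on the top-100 scale. Beside miR-142-3p, miR-142-5p and miR-223, that list holds miR-146a, miR-16, miR-15a, miR-21 and miR-342-3p, which were not set as myeloid markers.

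Markers of other cell types were absent in part. The hepatocyte marker miR-122 and the erythroid markers miR-144 and miR-451 lay at the floor in all 6 samples. So did 4 of 5 muscle markers, 3 of 8 epithelial markers and 2 of the 3 neuronal markers matched to a probe. No probe matched to these lists was tested. The summed signal of the epithelial list was 166.0 to 192.3 in the 60 min samples and 175.7 to 197.1 in the 30 min samples, where 8 floored probes alone give 160. MiR-200b and miR-200c of that list were above the floor in all 6 samples, with signal of at most 45.1. MiR-124 of the neuronal list was above the floor in 5 of the 6 samples, with signal of at most 42.1. The neuronal list also names miR-128a, which matched no probe by that name. A probe named miR-128 was tested and did not pass on either scale. Its deposited signal was 42.8, 47.3 and 22.1 at 60 min and 47.5, 35.8 and 27.3 at 30 min. Present at clear levels were mesenchymal miR-199a-3p, with deposited signal of 520.1 ± 23.2 at 60 min and 549.01 ± 41.3 at 30 min, and miR-199a-5p, with 123.2 ± 32.4 and 118.5 ± 36.5 at the same times. Endothelial miR-126-3p had 153.1 ± 42.1 at 60 min and 160.3 ± 15.1 at 30 min (SD, n = 3 each). On the top-100 scale the changes of these 3 were between -0.23 and -0.06 and none passed, while miR-10b, miR-143 and miR-214 of the mesenchymal list lay at the floor in all 6 samples.

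The 5 most abundant miRNAs held 32.6% of the signal and none of them passed. On the top-100 scale the joint probe of miR-20a and miR-20b, which belong with the miR-17~92 cluster and its paralogs and promote cell growth, had 17716 ± 3157 at 60 min and 20525 ± 2214 at 30 min (-0.22 ± 0.16). MiR-720, since reclassified as a piece of a tRNA, had 14191 ± 1600 at 60 min and 15837 ± 1066 at 30 min (-0.16 ± 0.13). MiR-106a and miR-17, read by a joint probe, had a change of -0.08 ± 0.12. Over the 5 tested members of that family the median change was 0.05 on the deposited scale and -0.08 on the top-100 scale.

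The let-7 family, which holds back proliferation genes, had 0 of 9 tested members passing. On the top-100 scale let-7g averaged 12239 ± 1415 at 60 min and 13485 ± 552 at 30 min (SD, n = 3 each), a change of -0.15 ± 0.13. The mean of let-7a was 12043 ± 823 at 60 min and 11637 ± 358 at 30 min, a change of 0.05 ± 0.12. Let-7b, chosen after its values were seen, had 2708, 2634 and 2768 at 60 min and 3355, 3197 and 2891 at 30 min, which did not overlap (-0.22 ± 0.12, -0.49 to 0.06). Among the 9 tested members 5 changes were positive on the deposited scale and 4 on the top-100 scale. The medians were 0.09 and -0.04. All tested miRNAs have the same medians because 1 family member is the middle value of both sets, so nothing is read from the match.

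**Figure D4:**
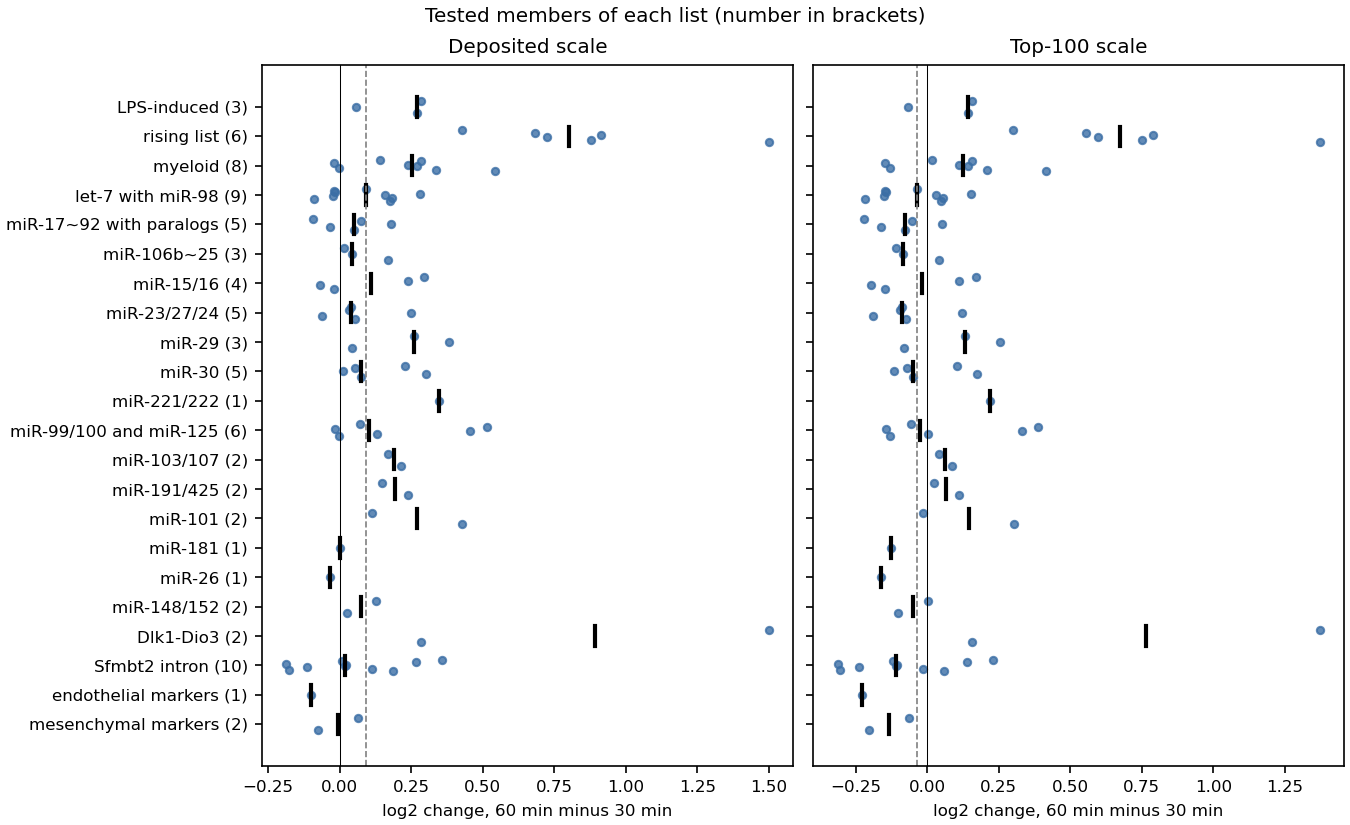
Change (log2, 60 min minus 30 min) of each tested member of each miRNA list (points) with the list median (black bar) on the deposited scale (left) and the top-100 scale (right), where the dashed line is the median of all 145 and the rising list is the one chosen on earlier results of these data. The lists other than the rising list and the 2 Dlk1-Dio3 members have medians between -0.10 and 0.35 on the deposited scale and between -0.23 and 0.22 on the top-100 scale.

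In the smaller families the 2 arms of miR-125a gave unlike values on the deposited scale. MiR-125a-3p, the passenger arm, which was chosen after its values were seen, had 166.9 ± 79.6 at 60 min and 114.3 ± 57.7 at 30 min (SD, n = 3 each), a change of 0.52 ± 0.33 there and 0.39 ± 0.30 on the top-100 scale, while its groups overlapped. The deposited change ran from 0.20 without 60 min replicate 2 to 0.98 without 60 min replicate 3, where it passed (adjusted p = 0.00981 in limma). MiR-125a-5p, the guide arm, had changes of -0.02 and -0.14. No test of the difference between the arms was made. MiR-100 had 86.7, 115.7 and 83.1 at 60 min and 64.1, 60.6 and 81.9 at 30 min on the deposited scale, a change of 0.46 ± 0.33 (adjusted p = 0.997).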

How the data were processed

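The deposited series table holds 626 probes, 566 of them mouse miRNAs, and its unit is called signal. In the sources used here the authors' normalization is not given. In the deposited values, all signal between the floor of 20 and 2000 fell, to within 0.1 of a unit, on whole multiples of a unit particular to the sample (0.884 to 1.31 in the 6 samples), so counts were read as signal divided by that unit. The 4 housekeeping mRNAs had the same geometric mean in all samples, and the hybridization controls held plain counts.

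From there, miRNAs were tested when their mean signal over the 6 samples exceeded 35.8, the mean over samples of the negative controls' mean plus 2 SD multiplied by the sample's unit (145 tested, 421 not). limma 3.58.1 in R 4.3.3 (lmFit, eBayes) was fitted to log2(signal + 1) with 1 mean per group, two-sided, with Benjamini-Hochberg adjustment over the 145 and a threshold of 0.05. The top-100 scale divides each sample by its geometric mean of the 100 mouse miRNAs with the highest mean over the 6 samples. Overall levels were compared with exact permutation tests (scipy 1.17.1). The scripts were tested on simulated data.

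The comparison, the miRNA lists and the rule for naming miRNAs were chosen with earlier results of these data known. The rule takes passing miRNAs, the 8 highest and 8 lowest changes on each scale among miRNAs above the floor in all 6 samples, the tested LPS-induced and rising miRNAs, the 5 most abundant, and from every other list at most 4 members. The alternatives changed the filter, pseudocount, floor, scaling, variance model and samples. Sequences were matched by name to RefSeq (GRCm38.p6) for 24 of the 29 probe names looked up.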

Additional observations from a re-analysis of the deposited data

Results flagged for a closer look

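Probes for miRNAs of mouse herpesviruses are outside the main measurement. One of them, mcmv-miR-m88-1, had signal of 30.28, 38.12 and 20 at 60 min (mean 29.47) and lay at the floor of 20 in all 3 samples at 30 min, which singled it out. The 2 values above the floor came from 29 counts each, against a highest negative control of 36 and 30 counts in the same samples. Another viral probe had the opposite order, mghv-miR-M1-7-3p, with 20.89, 20 and 20 at 60 min and 39.16, 28.82 and 24.94 at 30 min, and mghv-miR-M1-5 averaged 25.5 at 60 min and 32.3 at 30 min. Of the 33 viral probes, 10 were above the floor in any of the 6 samples, and the highest signal among them was 40.34, in a 30 min sample.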

How the results depend on the processing

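With 3 samples a group and counts of 25 to 100 for many of the leading miRNAs, small changes could not be resolved. The count of 1 passing miRNA on the deposited scale was 0 with no filter and 0 without both low samples (60 min replicate 3 and 30 min replicate 2, chosen after seeing the data), and 0 to 15 when each sample was left out in turn. The count of 0 on the top-100 scale was 2 with no filter (miR-376a and miR-1970), 8 with scaling to the ligation controls, all higher (miR-376a, 6 of the 7 next highest and miR-701), 1 with a variance trend (miR-376a) and 0 to 4 when each sample was left out. The change of miR-376a was positive in every alternative run, from 1.13 to 1.85 on the deposited scale and from 1.15 to 1.66 on the top-100 scale. With the replicate number as a block the counts were 1 and 0, and miR-376a had adjusted p = 0.0231 on the deposited scale and 0.252 on the top-100 scale. Across miRNAs, deviations of same-numbered samples from their group means correlated at -0.01, -0.38 and -0.09 on the deposited scale. These correlations leave out a shift shared by all miRNAs of a sample, so they cannot decide whether the numbers pair the samples. The difference in summed signal ran from -0.045 to 0.26 when each sample was left out, was 0.16 for the median miRNA and 0.11 per positive control count. The planned edgeR fit on recovered counts was not run, since the deposited columns also hold the floor and plain-count controls, which are not multiples of the sample's unit, and as whole columns they did not reach the share of whole values that a count test was to require.

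Of 1214 alternative values for the 38 tested miRNAs whose change the text gives, 40 had the opposite sign, and none of these had an unadjusted p under 0.05 on either side. Without both low samples the signs turned for miR-1937a and miR-1937b (0.28 deposited, 0.070 top-100), let-7g (0.0043 deposited) and miR-136 (-0.021 top-100, against 0.0088 to 0.27 with each sample left out in turn). On the top-100 scale they turned with scaling to the ligation controls for miR-132 (0.052), miR-106a and miR-17 (0.043) and miR-25 (0.011), and for miR-301a with quantile normalization (-0.12) or scaling to the median miRNA (-0.0023). With each sample left out in turn, ranges across 0 on the deposited scale were -0.39 to 0.091 for miR-130b, -0.30 to 0.020 for miR-467c, -0.63 to 0.44 for miR-1937a and miR-1937b, -0.076 to 0.21 for miR-132, -0.14 to 0.11 for miR-223 and -0.23 to 0.14 for miR-720. They were -0.13 to 0.12 for let-7g, -0.21 to 0.12 for let-7b, -0.17 to 0.013 for miR-20a and miR-20b, -0.12 to 0.21 for miR-106a and miR-17, -0.0010 to 0.48 for miR-136, -0.10 to 0.13 for miR-25, -0.30 to 0.010 for the shared miR-466a-3p probe and -0.16 to 0.11 for miR-125a-5p. On the top-100 scale they were -0.62 to 0.086 for miR-1937a and miR-1937b, -0.17 to 0.0070 for miR-132, -0.0075 to 0.083 for let-7a (0.095 without both low samples) and -0.0040 to 0.069 for miR-301a. The causes were not tested.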
